A study of Arabidopsis thaliana with 12 samples.

Results

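NdhS (locus AT4G23890) and AT5G59400 were examined as candidate genes of photosynthetic cyclic electron flow on this array. Members were the probes whose entry in the platform's probe table held 1 gene, that gene being NdhS or AT5G59400, which gave 2 of the 691 genes named in this way and 2 of the 3439 probes, probe 77 for NdhS and probe 1850 for AT5G59400. The RNA came from Arabidopsis thaliana of ecotype Columbia 0, with 6 samples of wild type (WT) and 6 of the psak mutant, which has no PSI-K, a small membrane subunit of photosystem I. The labels give no tissue, age, growth condition or allele, and they do not say whether the samples numbered 1 to 6 in a genotype came from separate plants. The spread behind the p-values is therefore that between these samples, and it may be technical in part.

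In cyclic electron flow, electrons that photosystem I has passed to ferredoxin return to the plastoquinone pool, which adds to the proton gradient across the thylakoid membrane without net reduction of NADP. One route runs through the chloroplast NADH dehydrogenase-like (NDH) complex, which takes electrons from ferredoxin and associates with photosystem I. The other depends on PGR5 and its partner PGRL1. NdhS, also known as CRR31, is the NDH subunit that provides the ferredoxin-binding site. For AT5G59400 the RefSeq gene table of TAIR10.1 gives neither a symbol of its own nor a functional name, and a likeness to the PGR5-like proteins was not checked here, so it is called by its locus. The gene table does carry the PGR5-like name for AT4G22890 (PGRL1A) and AT4G11960 (PGRL1B), which were not analysed here.

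Values are deposited intensities on a linear scale from 0 to 100. An intensity of exactly 0 was given to 13.0% to 19.4% of a sample's probes, and the summed intensity was 2967 to 3460. Samples 5 and 6 of psak differed from the rest: 18.1% and 19.4% of their probes were at 0, against 13.0% to 13.6% in psak 1 to 4 and 13.8% to 16.5% in WT. The log2 median of their values above 0 was -2.15 and -2.20, against -1.66 to -1.25 in the other 10 samples. Within a genotype, samples 1 and 2, 3 and 4, and 5 and 6 (called number pairs below) tended to be alike, with a consensus correlation of 0.590. This did not hold for every pair. The SD of log2 differences was 0.831 for WT 1 and 2, against 0.701 to 0.886 between WT samples of different pairs. It was 0.649 for psak 1 and 2, against 0.609 to 1.08 between psak samples of different pairs, the lowest being psak 2 and 4. Psak 5 and 6 were more alike to each other (0.809) than to psak 1 to 4 (1.03 to 1.08). WT 3 and 4 (0.655), WT 5 and 6 (0.487) and psak 3 and 4 (0.516) lay below the range between different pairs of their genotype. No probe listed PSAK alone, which leaves the genotype labels unchecked at that gene. Of 9 markers of flower, seed and root fixed for a tissue check, none had a probe that listed it alone, so this check could not be made.

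NdhS transcript was lower in psak. The deposited intensities of WT samples 1 to 6 were 9.65, 10.2, 7.72, 8.10, 9.80 and 9.28, a mean of 9.13 ± 1.003 (SD, n = 6). Those of psak samples 1 to 6 were 5.95, 6.40, 5.24, 5.43, 6.58 and 5.92, a mean of 5.92 ± 0.522 (SD, n = 6). The groups did not overlap, and the mean in psak was 35.2% below that in WT. Samples 3 and 4 were the lowest of both genotypes on this scale. In 9.25% of the 2358 probes above 0 in all samples, all psak intensities likewise lay below all WT intensities.

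**Figure D1:**
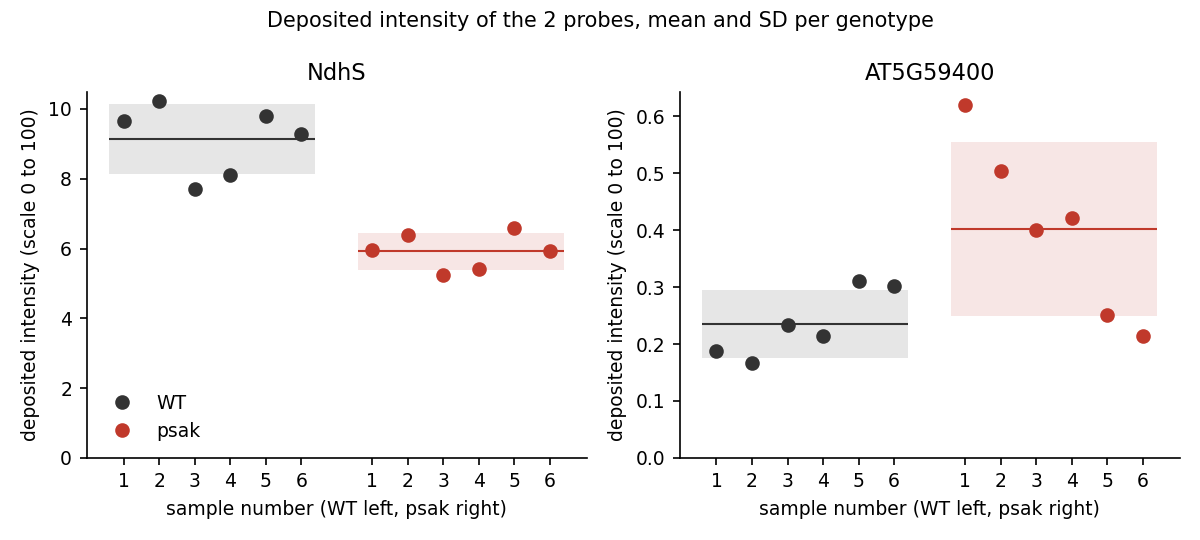
Deposited intensity (linear scale from 0 to 100) of the NdhS probe (left) and the AT5G59400 probe (right) in each sample, by sample number. Lines are genotype means and bands 1 SD (n = 6). All 6 psak values of NdhS lie below all WT values, while for AT5G59400 psak 1 to 4 lie above WT and psak 5 and 6 lie within the WT range.

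After quantile normalization between samples, which gives every sample the same distribution of log2 values, the log2 fold change of NdhS (psak minus WT) was -0.52 ± 0.15 (SE), with an unadjusted 95% interval from -0.84 to -0.19. It passed the threshold of 0.05 in the test of 12 samples (limma adjusted p = 0.0364), as did 6.72% of the 2993 tested probes in this direction. The groups did not overlap on the normalized scale either, where this was so in the same direction for 5.60% of the probes above 0 in all samples. The exact permutation test over all ways to divide the 12 samples into 6 and 6 gave an unadjusted two-sided p of 0.00216, the smallest it can give, and takes all 12 samples as independent. With number pairs as a random block, each block holding 2 samples of 1 genotype, the 55 probes called lower were 1.84% of those tested, and NdhS was not among them (limma adjusted p = 0.135). With the mean of each number pair as 1 replicate, limma called 0 probes in all, with 465 at an unadjusted p under 0.05, and the exact permutation test of NdhS gave p = 0.1, the smallest that 3 against 3 means allow.

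The call for NdhS was close to the threshold. It was lost on leaving out any 1 of 7 samples: WT 5 (limma adjusted p = 0.0723), WT 6 (0.0823), psak 1 (0.0608), psak 2 (0.0512), psak 3 (0.0688), psak 4 (0.0722) or psak 6 (0.0546). Without any 1 of the other 5 samples it held, with limma adjusted p from 0.0374 to 0.0493. The log2 fold change stayed below 0 in all 12 of these fits, from -0.56 to -0.43. Centring each sample on its median, in place of quantile normalization, gave -0.49 ± 0.23 (limma adjusted p = 0.199), and the values as deposited gave -0.62 ± 0.14 (limma adjusted p = 0.0121).

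The size of the NdhS difference was even across number pairs on the deposited scale and uneven after normalization. For numbers 1-2 the mean intensity was 9.94 in WT and 6.17 in psak, for 3-4 it was 7.91 and 5.34, and for 5-6 it was 9.54 and 6.25. The ratios of psak to WT were thus 0.621, 0.675 and 0.655. In the values as deposited the log2 differences were -0.69, -0.57 and -0.61, where the medians over all probes were 0.31, 0.23 and -0.90. On this scale NdhS thus lay below the median of its pair in numbers 1-2 and 3-4, and above it in numbers 5-6. After normalization the medians over all probes were 0.064, 0.054 and -0.17, and NdhS lay below each of them. The normalized log2 differences of NdhS were -0.26, -0.36 and -0.93, of which the last alone passed in a fit of its own 4 samples (limma adjusted p = 0.311, 0.133 and 0.0371). These fits called 0 of 2639, 351 of 2728 and 630 of 2580 probes, of which 0, 146 and 374 were lower. In numbers 1-2 no probe passed, so the absence of a call there is not particular to NdhS. Numbers 1 to 4 alone gave -0.31 (limma adjusted p = 0.0840). All 3 pairs pointed down on both scales, as did, after normalization, 22.6% of the 2758 probes with a value in every pair and 32.1% of those in the brightest 25% of the array, to which NdhS belongs. The interaction of genotype with number pair had a limma adjusted p of 0.0510 on normalized and 0.771 on deposited values, where 26.0% and 53.5% of 2358 probes passed. This interaction takes its error from the spread between the samples of 1 number pair. The larger normalized difference in numbers 5-6 went with the WT samples 5 and 6, at normalized log2 values of 3.59 and 3.39 against 2.94 to 3.06 in WT 1 to 4, whereas all psak samples lay between 2.44 and 2.78. On the deposited scale WT 5 and WT 6 were within the range of WT 1 to 4.

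AT5G59400 transcript was higher in psak after normalization, and on the deposited scale it was higher in numbers 1 to 4 and lower in numbers 5-6. The deposited intensities of WT samples 1 to 6 were 0.187, 0.167, 0.234, 0.213, 0.311 and 0.301, a mean of 0.236 ± 0.0593 (SD, n = 6). Those of psak samples 1 to 6 were 0.620, 0.504, 0.401, 0.421, 0.251 and 0.215, a mean of 0.402 ± 0.152 (SD, n = 6). The groups overlapped on this scale, since psak 5 and psak 6 lay within the WT range. The ratio of the means, psak to WT, was 1.71. The probe was above 0 in all 12 samples but was dim, and the deposited values come without a detection call, so its distance from background is not known.

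The place of the AT5G59400 probe within each sample, which a factor applied to the whole sample leaves as it is, did separate the genotypes. In WT samples 1 to 6, 41.8%, 40.8%, 47.8%, 44.0%, 47.3% and 46.0% of the probes on the array were dimmer than it. In psak samples 1 to 6 these shares were 73.8%, 64.6%, 58.7%, 59.2%, 61.7% and 59.3%. All 6 psak samples, 5 and 6 included, were above all WT samples, and psak 1 was the highest. Ranks within the sample separated in this direction for 6.45% of the probes above 0 in all samples. For NdhS the shares were 98.3% to 98.9% in WT and 97.7% to 98.0% in psak, and ranks separated in that direction for 5.22% of these probes.

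**Figure D2:**
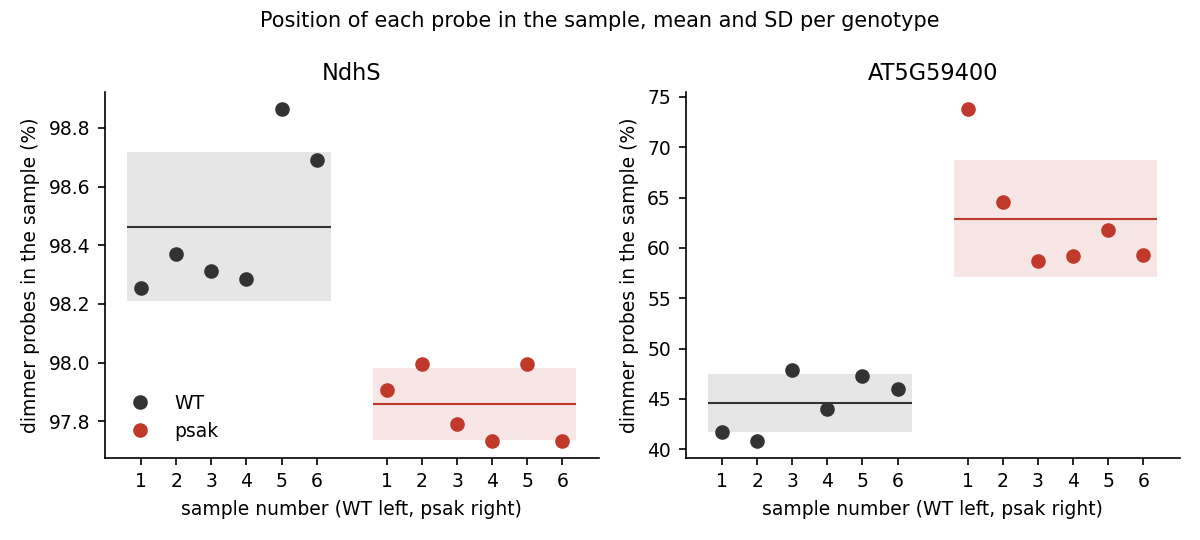
Share of the 3439 probes of a sample that were dimmer than the NdhS probe (left) and the AT5G59400 probe (right), in percent, by sample number, with genotype means and bands of 1 SD (n = 6). The axes do not start at 0. AT5G59400 runs from 40.8% to 47.8% in WT and from 58.7% to 73.8% in psak, and NdhS from 98.3% to 98.9% and from 97.7% to 98.0%.

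On the normalized scale the log2 fold change of AT5G59400 was 0.82 ± 0.16 (SE), with an unadjusted 95% interval from 0.48 to 1.16 (limma adjusted p = 0.00556). In this direction 8.12% of the tested probes passed. The normalized values of the genotypes did not overlap, as for 6.23% of the probes above 0 in all samples in the same direction, and the exact permutation test gave an unadjusted two-sided p of 0.00216, its smallest value. With number pairs as a random block the gene also passed, with a 95% interval from 0.38 to 1.26 (limma adjusted p = 0.0375), and was one of the 3.31% of probes called higher by that fit. With number-pair means it did not pass (limma adjusted p = 0.220), and the exact permutation test of those means gave its smallest value of 0.1. With the values as deposited the log2 fold change was 0.71 ± 0.28 and did not pass (limma adjusted p = 0.117). No single sample decided the call: without each sample in turn the log2 fold change was 0.71 to 0.87, with limma adjusted p from 0.00558 to 0.0140. Without psak 5 and psak 6 it was 0.91 (limma adjusted p = 0.00332).

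Across number pairs the difference of AT5G59400 was largest in numbers 1-2. The mean intensity there was 0.177 in WT and 0.562 in psak, a ratio of 3.18. In numbers 3-4 it was 0.224 and 0.411, a ratio of 1.84, and in numbers 5-6 it was 0.306 and 0.233, a ratio of 0.761. In the values as deposited the log2 differences were thus 1.66, 0.88 and -0.40, where the medians over all probes were 0.31, 0.23 and -0.90. Each difference of AT5G59400 lay above the median of its pair. After normalization the differences were 1.31, 0.65 and 0.49, all upward, as for 20.1% of the probes with a value in every pair and 16.0% of those in the next 25% by brightness, to which AT5G59400 belongs. The interaction of genotype with number pair passed on deposited values (limma adjusted p = 0.000562) and not on normalized ones (limma adjusted p = 0.0537).

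**Figure D3:**
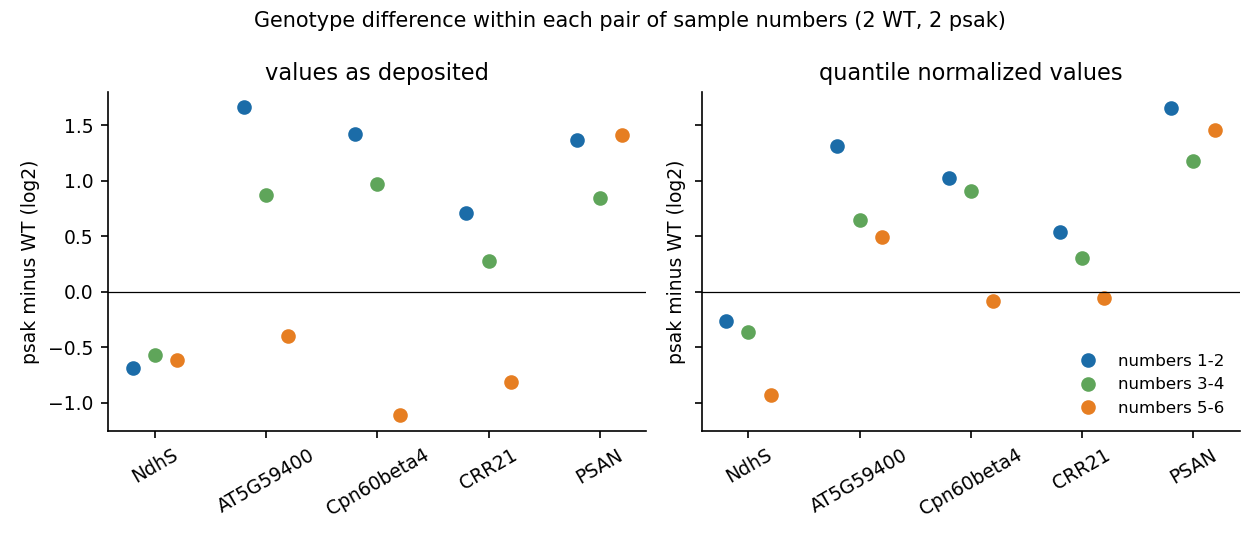
Mean log2 difference, psak minus WT, within numbers 1-2, 3-4 and 5-6 (2 samples per genotype each, no error shown) for NdhS, AT5G59400 and the other tested genes of the pathway lists, on deposited values (left) and quantile normalized values (right). NdhS lies below 0 and PSAN above 0 in every pair on both scales, while the 5-6 difference of AT5G59400 is -0.40 on the left and 0.49 on the right.

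NdhS and AT5G59400 moved apart. The log2 fold change of NdhS minus that of AT5G59400 was -1.33, and the exact permutation test over all such divisions of the 12 samples gave a two-sided p of 0.00216, its smallest value. The normalized values of each gene had already separated the genotypes, in opposite directions. The smallest p was therefore bound to follow, also for number-pair means, and is no separate evidence. The difference between the genes is taken within each sample, so that a factor applied to a whole sample cancels, and with the values as deposited it was -1.34. Within numbers 1-2, 3-4 and 5-6 it was -1.57, -1.01 and -1.42 on normalized values, where 2 against 2 samples cannot give a p below 0.333. In the values as deposited the pairs were less even. The log2 differences there were -0.69 for NdhS and 1.66 for AT5G59400 in numbers 1-2, and -0.57 and 0.88 in 3-4. In numbers 5-6 they were -0.61 and -0.40, so both genes were lower in psak and lay close together. With number-pair means the smallest possible p of 0.1 was reached. The difference between the genes shows unequal change of the transcripts, not which of them changed. A lower level per cell and fewer expressing cells cannot be told apart in total RNA.

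**Figure D4:**
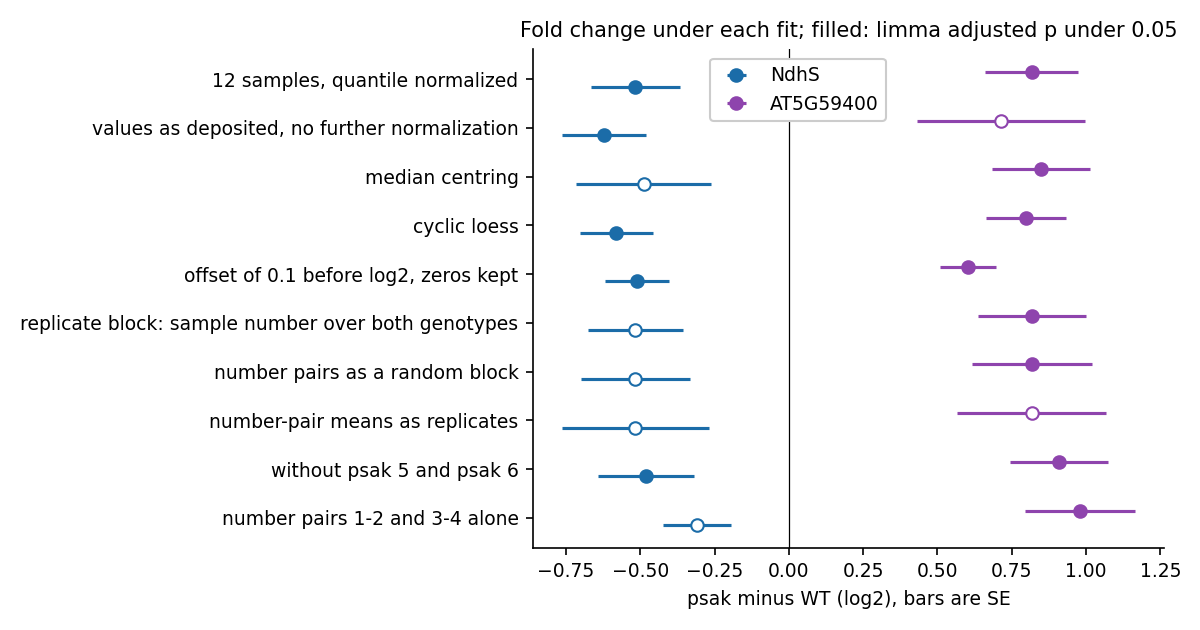
Log2 fold change, psak minus WT, of NdhS and AT5G59400 with its SE under 10 fits of limma, where filled points have an adjusted p under 0.05. Every NdhS value is below 0 and every AT5G59400 value above 0, from -0.62 to -0.31 and from 0.60 to 0.98, but the call changes with the fit.

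Of 67 genes fixed in lists of the NDH complex, its assembly and expression, the PGR5 and PGRL1 route, ferredoxin and its partners, and photosystem I, 6 had a probe that listed them alone, and 5 of these were tested. Of the 5, 2 were higher (AT5G59400 and PSAN), 1 was lower (NdhS) and 2 did not pass, where 8.12% of all tested probes were called higher and 6.72% lower. The median log2 fold change of the 5, which go both ways, was the 0.62 of Cpn60beta4, which did not pass, against -0.0026 over all tested probes. NdhN, a second subunit of the NDH complex, was listed at 0 in all 6 WT and in 3 psak samples, with a highest value of 0.0241, and could not be tested. NdhS was thus the single NDH subunit tested here. From the PGR5 and PGRL1 list only AT5G59400 was tested, and its place in that list was not checked, so its change is not a result about that route.

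Neither assembly and expression factor of the NDH complex passed. Cpn60beta4, a chaperonin subunit needed to fold the NDH subunit NdhH, had intensities from 0.150 to 0.320 in WT, from 0.427 to 0.599 in psak 1 to 4, and of 0.124 and 0.114 in psak 5 and 6. CRR21, a pentatricopeptide repeat protein needed for editing of the ndhD transcript, ran from 0.393 to 0.610 in WT, from 0.592 to 0.681 in psak 1 to 4, and was 0.325 and 0.303 in psak 5 and 6. Both were thus low in the psak samples with the most probes at 0. Cpn60beta4 had a normalized log2 fold change of 0.62 ± 0.30 (limma adjusted p = 0.192), and CRR21 one of 0.27 ± 0.15 (limma adjusted p = 0.277). Within numbers 1-2, 3-4 and 5-6 these differences were 1.02, 0.91 and -0.09 for Cpn60beta4 and 0.54, 0.30 and -0.05 for CRR21. The sequence of higher, higher and lower was found in 20.4% of the probes with a value in every pair, and in 41.0% on the deposited scale. AT5G59400 had that sequence on the deposited scale only. PSAN, the lumenal photosystem I subunit at the plastocyanin docking site, differed by 1.66, 1.18 and 1.46 within these pairs.

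The single-gene probes with the sample pattern most like each member were sought among 475 others above 0 in all samples, by Pearson correlation of normalized log2 values over the 12 samples. These samples share genotype and number pairs, so the values only describe likeness. A gene chosen in this way tends to differ between the genotypes as its member does, so its call is no separate evidence. Of all tested probes, 6.72% were called lower and 8.12% higher. For NdhS the highest were AT3G04650 (r = 0.94), AT4G18180 (0.92), AT2G31920 (0.91), AT5G40030 (0.90) and AT2G46220 (0.90), all 5 called lower in psak, with log2 fold changes from -1.17 to -0.58 and limma adjusted p from 0.00756 to 0.0410. AT3G04650 stood at 3.70 ± 0.632 in WT and 1.68 ± 0.180 in psak (SD, n = 6). The most opposed to NdhS were AT5G11010 (r = -0.93), AT1G32730 (-0.89) and AT1G01500 (-0.89), of which AT1G32730 alone passed the test between genotypes (limma adjusted p = 0.00137).

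For AT5G59400 the most alike were AT5G03370 (r = 0.95), AT3G26630 (0.89), AT3G06570 (0.89), AT5G55580 (0.88), which the gene table names mTERF9, and ATSPS4F (0.87). All 5 were called higher in psak, with log2 fold changes from 0.53 to 1.28 and limma adjusted p from 0.000288 to 0.0111. The choice by correlation favours such calls, which 8.12% of all tested probes had. AT5G03370, the closest, was dim like AT5G59400 in both genotypes, at 0.194 ± 0.0778 in WT and 0.388 ± 0.157 in psak (SD, n = 6). AT4G32060 (r = -0.95), AT2G39360 (-0.92) and DI21 (-0.90), a drought-induced gene, were the most opposed and were called lower. The correlation between NdhS and AT5G59400 themselves was -0.58, so neither was among the genes most opposed to the other.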

How the data were processed

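Total RNA of 6 WT and 6 psak samples was measured on an array of 3439 probes. The deposited intensities were used, 1 per probe and sample, which the authors had scaled to a maximum of at most 100. Scanning, background correction and any further scaling are not given in the sources used here. Coordinates are left out, since no source used here names a genome build. Of the probes, 692 list 1 gene, 870 several, and 1877 are unnamed here. Probe sequences were not checked.

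Zeros were treated as missing, values taken to log2 and quantile normalized, and probes with at least 2 values per genotype fitted in R 4.3.3 with lmFit and eBayes of limma 3.58.1 (two-sided, Benjamini-Hochberg over 2993 probes). No 2 samples of a genotype were duplicates (SD of their log2 differences 0.487 to 1.08). The fit was tested on simulated data in which all samples were independent, so that test does not cover the likeness within number pairs. Members and gene lists were chosen with earlier results of these data known. The named genes are both members, single-gene probes of the lists, and for each member the 5 most and 3 least correlated single-gene probes. The interaction of genotype with number pair and the fit of numbers 1 to 4 were added after the data were seen. Precision is limited by having 6 samples per genotype. Figures were drawn with matplotlib 3.10.9.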

Additional observations from a re-analysis of the deposited data

Results flagged for a closer look

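On the deposited scale the genotype difference varied between number pairs for AT5G59400 (limma F test of the interaction, adjusted p = 0.000562), Cpn60beta4 (adjusted p = 0.000785, limma) and CRR21 (adjusted p = 0.00120, limma). All 3 were higher in psak in numbers 1-2 and 3-4 and lower in 5-6, with log2 differences of -0.40, -1.11 and -0.81 in the latter, where the median of all probes was -0.90. On this scale 53.5% of 2358 probes passed the same test. After normalization none of the 3 passed (limma adjusted p = 0.0537, 0.0605 and 0.128). No single sample was flagged as far from the others of its genotype in any of 12 groups of 6 intensities searched. There was 1 group for each genotype and each single-gene probe of the lists. This search did not flag samples that were low together. Psak 5 and 6 were so for Cpn60beta4, at 0.124 and 0.114 against 0.427 to 0.599 in psak 1 to 4. For CRR21 they were at 0.325 and 0.303 against 0.592 to 0.681.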

How the results depend on the processing

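NdhS stayed lower and AT5G59400 higher in psak under every alternative run, with the comparison within number pairs made on normalized values. Within number pairs no other scale was fitted. In the deposited values of numbers 5-6 the log2 difference of AT5G59400 was -0.40. That of NdhS was -0.61 there, above the median of -0.90 over all probes. After normalization it was -0.93 in these numbers, below the median of -0.17. The call for NdhS was lost with median centring (log2 fold change -0.49), and, at an unchanged -0.52, with a replicate block of sample numbers over both genotypes (limma adjusted p = 0.0760), with number pairs as a random block and with number-pair means. It was also lost within numbers 1-2 (-0.26), 3-4 (-0.36) and 1 to 4 (-0.31), with smaller fold changes. It held within 5-6 (-0.93, limma adjusted p = 0.0371), where 630 of 2580 probes were called. It ran from -0.56 to -0.43 with each sample left out. AT5G59400 was not called on deposited values (0.71), with number-pair means (0.82) or within numbers 1-2 (1.31), 3-4 (0.65) and 5-6 (0.49). It was called with the replicate block (0.82, limma adjusted p = 0.0301). Deviations of equal numbers correlated at 0.0798 to 0.239 and at over 0.1 for 4 of 6 numbers, short of the rule that all must. For 5 of 6 numbers the best match across genotypes was the same number, and WT 1 matched psak 5 best. This hint of pairing comes from the data, not the labels. The difference between the genes was past the threshold except with number-pair means (-1.33) and within pairs (-1.57, -1.01 and -1.42), where few samples set the smallest p. Its fit with a random block was not run. On quantile normalized values the permutation p of this difference followed from the separation of both genes and is no separate evidence. The 444 called probes became 283 with median centring, 154 with the random block, 949 without psak 5 and psak 6, 780 within numbers 1 to 4, and 0 with number-pair means and within numbers 1-2 (465 and 887 at an unadjusted limma p under 0.05). They were 331 to 583 with each sample left out. Of the calls, 243 were higher and 201 lower, against 146 and 275 with the values as deposited, where the fold changes of all probes had a log2 median of -0.11. Cyclic loess, the offset, trend and robust variances, number pair as a fixed block and the filter on zeros kept both calls. The exact permutation test gave both genes a p of 0.00216, which is unadjusted and so not a call at the same threshold. AT5G59400 has a mean intensity under 0.5, so the filter at 0.5 gave it no value.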
